A study of Mus musculus with 2 samples.

Results

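The genes described here encode the proteins of the mitochondrial ribosome. They were taken as every probe set whose only symbol in the platform annotation began with Mrpl or Mrps followed by a digit, which gave 156 of 45037 probe sets and 76 of 18193 genes. Of the 76 genes, 47 carried a large subunit symbol (Mrpl) and 29 a small subunit symbol (Mrps). The set was selected on the measured signals of Mrpl33, already known to be lower on the mutant array, so the values of Mrpl33 are given as a description.

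RNA came from mouse embryonic fibroblasts, cultures of cells released from whole embryos, made at embryonic day 12.5 and harvested at passage 1. One culture was homozygous for Phc2 L307R, a missense change in the SAM domain through which molecules of the Polycomb protein Phc2 polymerise. The other was wild type, and both were of the strain C57BL/6, per the labels. Each genotype had 1 Affymetrix array, and the sources used here do not say how many embryos went into a culture. No value below therefore has a replicate, no test between the genotypes was possible, and each difference is one between 2 cultures.

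Mitochondria keep a small genome of their own and translate its few messages, all for subunits of the respiratory chain and ATP synthase, on a ribosome of bacterial descent. Its ribosomal RNAs are made in the organelle. All its proteins are encoded in the nucleus, made in the cytosol and imported, and they join into a large subunit, which forms peptide bonds, and a small subunit, which reads the message. Many of these proteins have a counterpart in bacteria, while others are found in mitochondria only. Nuclear respiratory factor 1 (NRF1) and the ETS factor GABPA, also called nuclear respiratory factor 2, are known to drive many nuclear genes for mitochondrial proteins.

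The 2 arrays had close median signals, 94.3 in Phc2 L307R and 94.8 in wild type, and the higher of these served as the floor below which a signal was not read. Each gene was read at its probe set of highest mean signal. It counted as measured where that signal exceeded the floor on either array or both, as it did in 11408 genes. All differences are log2 ratios of signal, Phc2 L307R over wild type, and the median over all measured genes was 0.06. All 10 fibroblast markers were measured, with signals between 1194.0 and 41327 in Phc2 L307R and between 585.4 and 30907 in wild type. All 4 skeletal muscle markers were also above the floor on both arrays, at a median log2 ratio of 0.24. All 3 neuron markers were measured as well. Stmn2 was at a log2 ratio of 1.01, with 1721.4 in Phc2 L307R and 852.9 in wild type, and Tubb3 at 0.43. Map2 was at -1.31, with 359.4 in Phc2 L307R and 891.1 in wild type. Macrophage, endothelial and epithelial markers were measured in part. Of 6 macrophage markers 4 were measured, while Ptprc and C1qa lay below the floor on both arrays. Of the 4, 3 had log2 ratios above 0, with Csf1r highest, at 242.1 in Phc2 L307R and 162.6 in wild type. Cd68 was at -0.11, with 94.9 in Phc2 L307R, just above the floor, and 102.1 in wild type. Of 5 endothelial markers 3 were measured. Emcn was at 94.9 in Phc2 L307R, just above the floor, and 210.8 in wild type. Kdr was at 318.7 in Phc2 L307R and 307.4 in wild type. Tek was at 128.8 in Phc2 L307R and 69.1 in wild type, the latter under the floor. Pecam1 and Cdh5 lay below the floor. Of 4 epithelial markers the keratins Krt8 and Krt18 were measured, Krt8 at 199.8 in Phc2 L307R and 191.6 in wild type and Krt18 at 495.8 in Phc2 L307R and 689.8 in wild type, while Epcam and Cdh1 lay below it.

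Mrpl33 encodes the mitochondrial counterpart of the bacterial large subunit protein L33. The region around its start is shown because it holds the letters of both factors named above. Of the 76 genes, 67 had an entry in the RefSeq promoter table of build GRCm38.p6, with 73 windows in all, each running from 250 bases before the annotated start to 30 bases after it. Among the letters searched on both strands were GCGCATGC for NRF1 and CCGGAAGT for GABPA. These do not overlap in the windows shown and are printed in capitals. Mrpl33 (chr5:31613701-31613980, plus strand) is set beside the member of lowest log2 ratio among the others that hold the NRF1 letters, Mrpl17 (chr7:105811058-105811337, minus strand), and its like for the GABPA letters, Mrpl18 (chr17:12916062-12916341, minus strand).
Mrpl33: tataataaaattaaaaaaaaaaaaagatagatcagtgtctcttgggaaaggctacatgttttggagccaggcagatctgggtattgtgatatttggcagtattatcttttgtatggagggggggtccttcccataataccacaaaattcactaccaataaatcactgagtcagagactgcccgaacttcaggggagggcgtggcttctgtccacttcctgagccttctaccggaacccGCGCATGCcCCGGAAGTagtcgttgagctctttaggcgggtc
Mrpl17: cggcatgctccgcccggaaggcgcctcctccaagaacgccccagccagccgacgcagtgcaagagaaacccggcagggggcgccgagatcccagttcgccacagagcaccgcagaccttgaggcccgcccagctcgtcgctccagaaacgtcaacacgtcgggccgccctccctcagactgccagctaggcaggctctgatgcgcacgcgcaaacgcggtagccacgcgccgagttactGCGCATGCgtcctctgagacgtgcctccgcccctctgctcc
Mrpl18: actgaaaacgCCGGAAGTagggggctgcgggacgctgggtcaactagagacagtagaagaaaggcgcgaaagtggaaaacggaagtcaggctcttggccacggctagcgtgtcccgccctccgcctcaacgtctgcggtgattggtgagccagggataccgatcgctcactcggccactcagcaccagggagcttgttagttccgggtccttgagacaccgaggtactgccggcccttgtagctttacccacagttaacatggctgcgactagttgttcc
In the window of Mrpl33 the NRF1 letters begin 12 bases before the start and the GABPA letters span it, 1 base apart. The NRF1 letters stood in 8 of the 73 member windows (10.96%) and in 2.58% of all 32851 windows of the table, and the GABPA letters in 12 (16.4%) and 3.72%. Mrpl33 was the one member with both, which 0.240% of all windows held. That share does not measure how rare the pair is among members, which held each run of letters more often. The 18 other members with either run of letters had log2 ratios between -0.23 and 0.18, 8 above 0 and 10 below. Letters of a TATA box, a CCAAT box, the regulator YY1 and the E-box of MYC were also searched. They stood in 6.85%, 37.0%, 4.11% and 9.59% of member windows, in that order. Over all windows the shares were 13.1%, 36.1%, 0.411% and 6.79%. The window of Mrpl33 held the CCAAT box but none of the others. All these are matches of letters and show no binding.

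Mrpl33 stood apart from all its subunit partners. At its probe set 1448190_at the signal was 736.3 in Phc2 L307R, against 2153.7 in wild type, a log2 ratio of -1.55 or 2.93-fold lower. Both signals lay well above the floor, by 7.77 times in Phc2 L307R and 22.7 times in wild type. The other 75 members lay between -0.63 and 0.39, so a gap of 0.92 on the log2 scale separated Mrpl33 from the next member. Among all 11408 measured genes it was the 7th lowest. It was the only member with a 2-fold difference in either direction, while 0.535% of all measured genes were at least 2-fold lower and 0.579% at least 2-fold higher. Among the 6289 measured genes with signals at least as high as the lowest member signal on each array, 0.318% were at least 2-fold lower. The value rests on 1 probe set, since the second probe set of the gene, 1425843_at, had signals of 50.6 in Phc2 L307R and 62.5 in wild type, both below the floor.

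**Figure D1:**
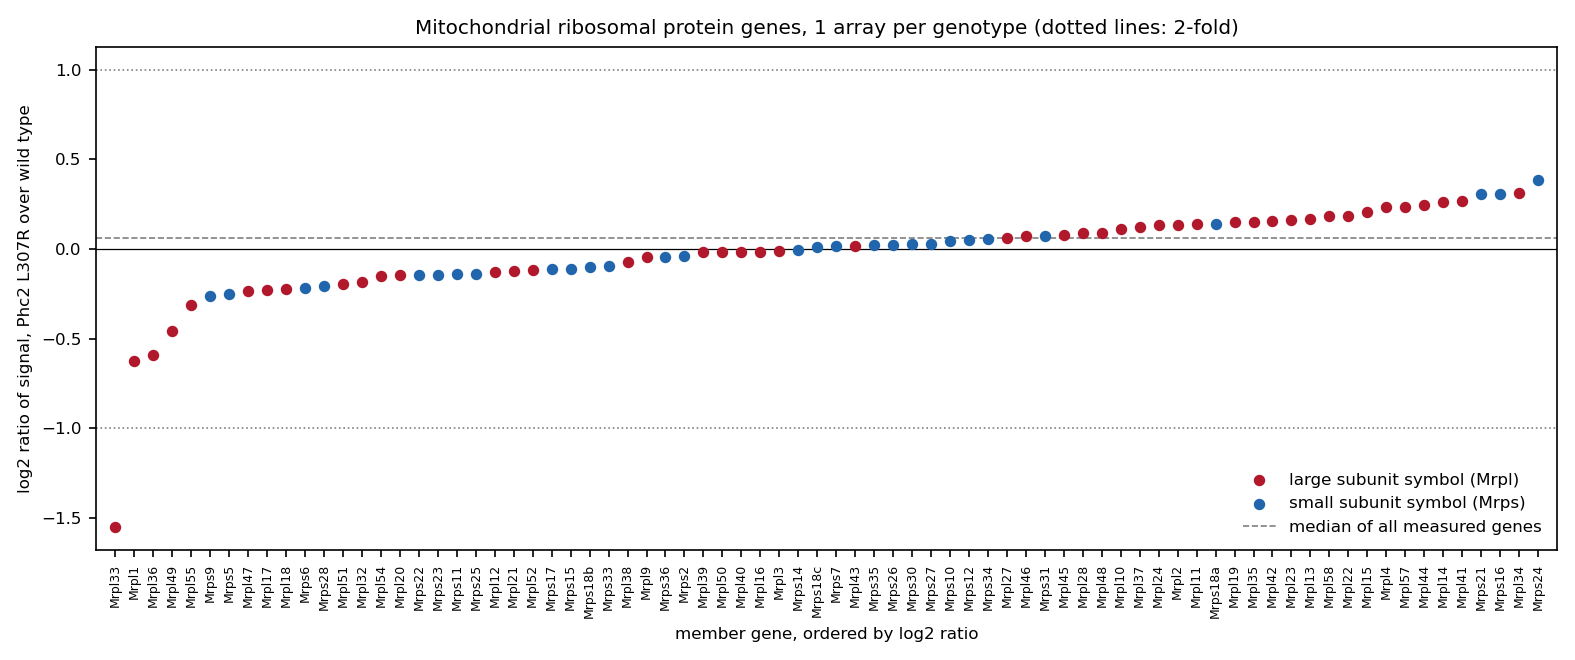
Log2 ratio of signal, Phc2 L307R over wild type (vertical axis), for each of the 76 genes ordered from lowest to highest, with 1 point per gene from 1 array per genotype and no error bar. Mrpl33 lies at -1.55 beyond the dotted 2-fold line, and the other 75 run from -0.63 to 0.39 around the dashed median of all measured genes at 0.06.

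As a group the members hardly differed between the 2 cultures at the probe sets that represent them. Their median log2 ratio was 0.01, beside 0.06 over all measured genes and 0.05 over the genes with signals at least as high as the lowest member signal on each array. Of the 76, 39 (51.3%) were above 0 and 37 below, while 59.1% of all measured genes were above 0. With all ratios centred on the median of measured genes the split was 29 and 47, and after loess it was 33 and 43, so the sign of the group's median depends on the scaling. The 55 further measured probe sets of the members had a median log2 ratio of -0.09, with 34 below 0 and 21 above. The members also lay close together: 64 of them (84.2%) differed less than 1.2-fold, against 62.6% of all measured genes and 68.5% of those with signals at least as high. The SD of the members' log2 ratios was 0.26, against 0.33 over all measured genes and 0.28 over those with signals at least as high. Without Mrpl33 it was 0.20, but no extreme gene was taken out of the sets compared. The set of genes with signals at least as high is not matched to the members for brightness. It starts at their lowest signals, while their median signals were 1950.2 in Phc2 L307R and 1863.5 in wild type. All 76 were above the floor on both arrays, with signals from 368.3 to 4981 in Phc2 L307R and from 568.5 to 5045 in wild type. Signals of different probe sets depend on their probes and do not rank genes by level.

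**Figure D2:**
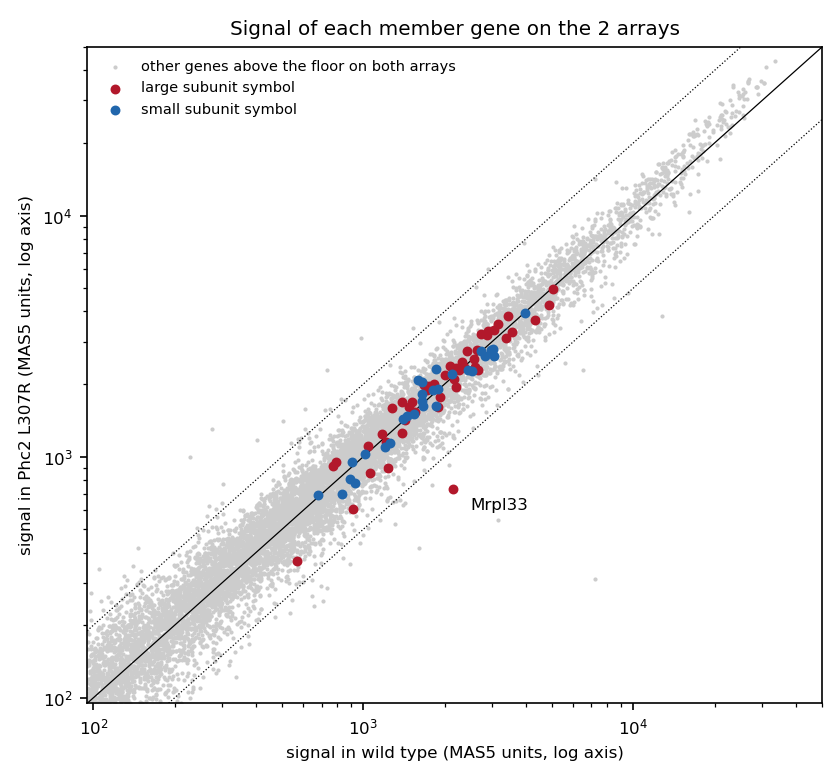
Signal in Phc2 L307R (vertical) against signal in wild type (horizontal), both on log axes in MAS5 units, for the 76 members in colour and all other genes above the floor on both arrays in grey. The solid line marks equal signals and the dotted lines 2-fold differences. Mrpl33, at 736.3 in Phc2 L307R and 2153.7 in wild type, is the only coloured point beyond a dotted line.

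Among the large subunit proteins, the low end held more distant values than the high end. The median of the 47 was 0.06, 25 above 0 and 22 below, and it was 0.07 without Mrpl33. Mrpl1 forms the mobile stalk beside the exit site for transfer RNA. Its signal was 368.3 in Phc2 L307R and 568.5 in wild type, a log2 ratio of -0.63. Its other measured probe set, 1423351_at, went the other way, with 337.6 in Phc2 L307R and 260.4 in wild type (0.37). Mrpl36, the counterpart of the small bacterial protein L36, was at -0.59 on its single probe set, with signals of 609.0 in Phc2 L307R and 917.2 in wild type. These were the only members besides Mrpl33 that were at least 1.5-fold lower, and no member was 1.5-fold higher. Over all measured genes, 3.25% were at least 1.5-fold lower and 4.19% at least 1.5-fold higher.

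Mrpl49, which has no bacterial counterpart, had signals of 899.0 in Phc2 L307R and 1235.1 in wild type, a log2 ratio of -0.46. A second probe set of it, 1423218_a_at, read 784.0 in Phc2 L307R and 541.3 in wild type, a log2 ratio of 0.53. For Mrpl1 and Mrpl49 the probe sets thus disagreed in direction. Mrpl55, another large subunit protein, followed at -0.31, with 856.2 in Phc2 L307R and 1061.0 in wild type. Mrpl47, the counterpart of bacterial L29 at the rim of the exit tunnel, was at -0.23, Mrpl17 at -0.23 and Mrpl18, which belongs to the central protuberance, at -0.22. None of these last 3 reached a 1.2-fold difference.

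At the high end of the large subunit stood Mrpl34, the counterpart of bacterial L34, with signals of 1593.0 in Phc2 L307R and 1282.3 in wild type (0.31). Mrpl41, a mitochondrial protein without a bacterial counterpart, was at 0.27, with 1681.6 in Phc2 L307R and 1396.2 in wild type. Its other measured probe set, 1428588_a_at, went the other way, with 1400.2 in Phc2 L307R and 1542.8 in wild type (-0.14). Mrpl14 was at 0.26. Only these 3 large subunit members were at least 1.2-fold higher, and 6 of all 76, while 6 were at least 1.2-fold lower; over all measured genes the shares were 23.1% and 14.3%. Mrpl44, whose fold resembles that of RNase III, was at 0.25, and all but 1 of its 4 measured probe sets were higher. Mrpl57 was at 0.24 on one probe set and 0.25 on the other. Mrpl4 and Mrpl22, which line the narrow part of the exit tunnel, were at 0.23 and 0.18. Mrpl15 was at 0.20, but its 6 measured probe sets ran from -0.45 to 0.20. Mrpl58, a peptidyl-tRNA hydrolase built into the subunit, was at 0.18.

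Members from several functional parts of the large subunit are given next, chosen after their values were seen. In the factor-binding stalk, Mrpl10 and Mrpl11 were at 0.11 and 0.14 and Mrpl12, which has also been reported to bind the mitochondrial RNA polymerase, at -0.13. Near the site of peptide bond formation, Mrpl2 was at 0.13, Mrpl3 at -0.01, Mrpl16 at -0.01 and Mrpl27 at 0.06. Mrpl45, which tethers the ribosome to the inner membrane, was at 0.08. Mrpl39, which resembles a threonyl-tRNA synthetase, was at -0.02, with 4981 in Phc2 L307R and 5045 in wild type. Mrpl32 and Mrpl35, also with bacterial counterparts, were at -0.18 and 0.15.

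The small subunit proteins spanned a narrow range. Their 29 log2 ratios ran from -0.26 to 0.39 with a median of -0.01, 14 above 0 and 15 below. Relative to the median of all measured genes, 24 of the 29 were lower, and 23 of the 47 large subunit genes. With the mean over probe sets the order of the subunit medians turned, to 0.004 for the large and 0.009 for the small subunit. The highest of all members was Mrps24, the counterpart of bacterial S3, with 2085.5 in Phc2 L307R and 1594.1 in wild type, a log2 ratio of 0.39. Its other probe set, 1438563_s_at, read 1108.1 in Phc2 L307R and 1649.7 in wild type (-0.57). Both carry the suffix _s_at, which marks probes that can bind several transcripts.

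Mrps16 had signals of 2304.0 in Phc2 L307R and 1860.8 in wild type, and Mrps21 had 2039.4 in Phc2 L307R and 1647.3 in wild type, each at a log2 ratio of 0.31. They are the counterparts of bacterial S16 and S21. The lowest small subunit member was Mrps9, at -0.26, with 776.0 in Phc2 L307R and 931.5 in wild type. Its 4 measured probe sets all had ratios below 0. Mrps5 followed at -0.25 and Mrps6 at -0.22, while Mrps28 was at -0.20. Mrps12, part of the decoding centre, was at 0.05. Mrps27, an RNA-binding pentatricopeptide protein, was at 0.03.

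The 3 paralogs of bacterial S18 differed little: Mrps18a was at 0.14, Mrps18b at -0.10 and Mrps18c at 0.01. Mrps18a and Mrps30, despite their names, sit in the large subunit of the mammalian ribosome. With both counted there, the large subunit median was 0.06 and that of the small subunit -0.04. Mrps36, at -0.04, is now known as part of the oxoglutarate dehydrogenase complex and not of the ribosome. By descent, the 46 members with a bacterial counterpart had a median of 0.00 and the 28 found in mitochondria only had 0.02. Of the 28, Mrpl49 and Mrpl41 alone reached a 1.2-fold difference at the probe sets that represent them, and further probe sets of both went the other way.

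How well probe sets of 1 gene agreed sets the only error available, which is technical. Of the 156 probe sets 131 were measured, and 42 of the 76 genes had a single measured one. The remaining 34 genes split into 12 whose measured probe sets lay on 1 side of 0 and 22 with values on both sides. Probe sets for the same gene scattered with an SD of 0.33 on the log2 scale in these 34 genes, and of 0.32 in the 5460 such genes of the array.

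In 14 genes the measured probe sets lay on both sides of 0 with a gap of at least 0.5: Mrpl1, Mrpl3, Mrpl9, Mrpl11, Mrpl13, Mrpl15, Mrpl19, Mrpl27, Mrpl49, Mrps5, Mrps10, Mrps15, Mrps23 and Mrps24. The gap was widest in Mrps5, from -0.58 to 0.58 over 5 probe sets, where the lower value is a bound set by the floor. Mrpl13 was at 0.17 at the probe set that represents it, with 3539 in Phc2 L307R and 3153 in wild type. Its probe sets 1435966_x_at and 1460354_a_at gave -0.87 and -0.60. Mrpl9 was at -0.04, while 1437749_s_at gave -0.90, with 1178.7 in Phc2 L307R and 2193.3 in wild type. Of the 131 measured probe sets 8 were at least 1.5-fold lower and none 1.5-fold higher, beside 4.79% and 3.87% of all measured probe sets with 1 symbol. With signals below the floor raised to it, Mrpl33 gave the only one past 2-fold. That size was reached on the lower side by 0.984% of all measured probe sets with 1 symbol. Before the floor was applied, 1451623_at of Mrpl15 read 40.1 in Phc2 L307R and 100.8 in wild type. Likewise 1443915_at of Mrpl47 read 40.1 in Phc2 L307R and 96.7 in wild type. Both were past 2-fold lower there, with wild type signals just above the floor.

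**Figure D3:**
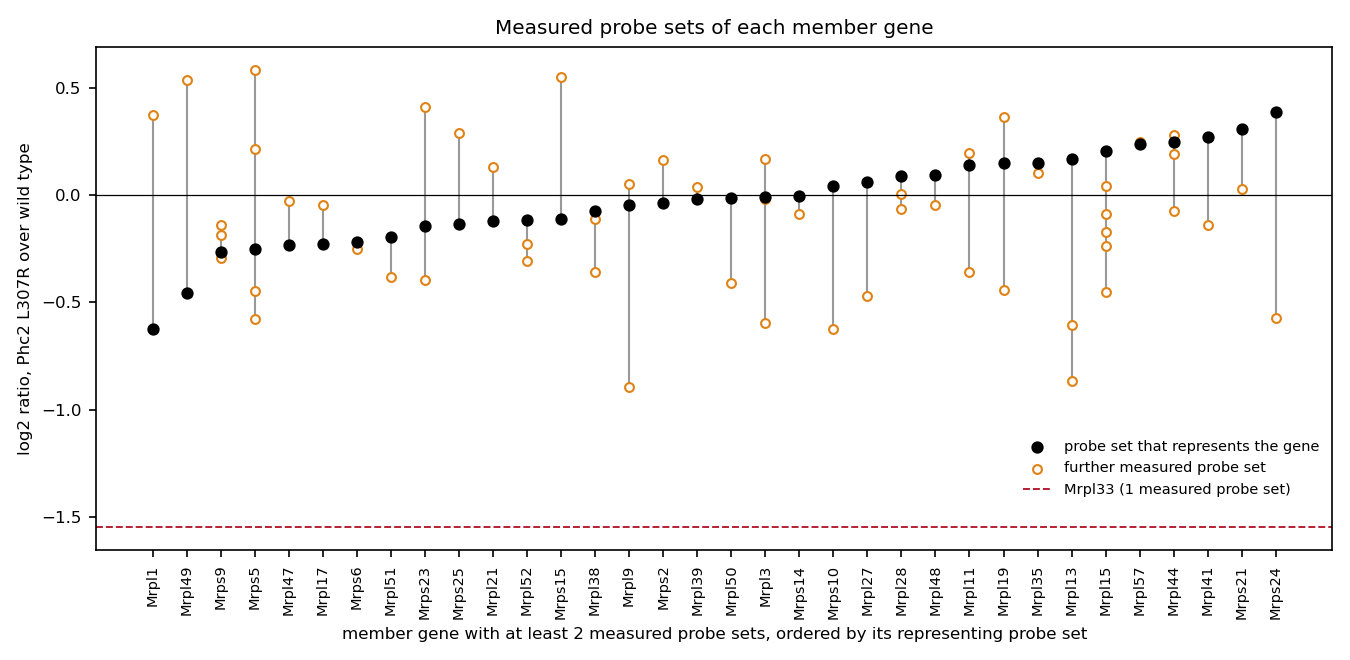
Log2 ratios, Phc2 L307R over wild type, of every measured probe set of the 34 members with at least 2, joined by a line for each gene. Filled points represent the gene and open points are its further probe sets. The widest line, that of Mrps5, spans -0.58 to 0.58, and no point reaches the dashed level of Mrpl33 at -1.55.

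The genes beside Mrpl33 on chromosome 5 did not share its value. Of the 5 genes on each side in the RefSeq gene table, 4 were measured. Gpn1, a GTPase, was at -0.21, Supt7l, a subunit of the SAGA coactivator, at 0.36, Slc4a1ap at -0.02 and Babam2, a member of a BRCA1-associated complex, at 0.09. Rbks, the ribokinase next to Mrpl33, and AI839979 lay below the floor on both arrays, and the other 4 had no probe set with 1 symbol here. Mrpl1, the next lowest member, is also on chromosome 5, as are Mrps17 at -0.11 and Mrps18c at 0.01.

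Chromosome 4, which carries Phc2, also carries 4 of the members. The nearest is Mrps15, 22 measured genes from Phc2, with 2804.8 in Phc2 L307R and 3028.0 in wild type (-0.11), though its probe set 1449294_at gave 0.55. Mrpl37 was at 0.12, Mrpl50 at -0.02 and Mrpl20 at -0.15, each over 100 measured genes away. All 4 differed less than 1.2-fold at the probe set that represents them. Phc2 itself read 4079.3 in Phc2 L307R and 3184.1 in wild type at 1416048_at (0.36), and 3103.4 in Phc2 L307R and 3144.5 in wild type at 1437239_x_at (-0.02).

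Subunit proteins that carry other names had 4 measured genes. Gadd45gip1, of the large subunit, had 1200.4 in Phc2 L307R and 1561.2 in wild type (-0.38; 0.25 at a dimmer probe set), and Ptcd3, of the small subunit, 1372.4 in Phc2 L307R and 1669.6 in wild type (-0.28). Chchd1 was at -0.09, and Dap3, a GTP-binding protein of the small subunit, at 0.24. Together with these the median of 80 subunit genes was 0.00. The probe set 1423857_at, listed for Mrpl30 and Gm6238 together, was at -0.19, and 1451178_at, listed for Mrpl53 and Ccdc142, at -0.10. They were outside the set because each names 2 genes.

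At the probe sets that represent them, no gene of the other mitochondrial lists reached a 2-fold difference, though further probe sets of Yars2 and Tomm20 did. For the 13 measured translation factors the median log2 ratio was 0.04, with 10 above 0 and 3 below, which centring turned to -0.02 with 6 and 7. Mtrf1l, a release factor, was lowest at -0.77, with 304.1 in Phc2 L307R and 519.1 in wild type. The initiation factors went apart, Mtif2 at -0.37 and Mtif3 at 0.48. Guf1, a translation GTPase, was at 0.28.

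Assembly factors of the mitochondrial ribosome had a median of 0.01 over 25 measured genes, 14 above 0 and 11 below, which centring turned to -0.05, and the SD of their log2 ratios was 0.35, close to the 0.33 of all measured genes. Rbfa, which acts on the small subunit, had the largest difference, with 1194.4 in Phc2 L307R and 628.1 in wild type, a log2 ratio of 0.93. Mettl17, also of small subunit assembly, was at 0.69, with 821.6 in Phc2 L307R and 507.8 in wild type, and its further probe sets were at 0.28 and 0.38. Ngrn and Fastkd2, which act on the large ribosomal RNA, were both at -0.46, but further probe sets of Fastkd2 were at -0.11 and 0.53. The large subunit GTPases Mtg2 and Gtpbp10 were at 0.46 and -0.45.

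The mitochondrial tRNA synthetases and amidotransferase subunits had a median of -0.11 over 19 genes, 8 above 0 and 11 below. The median was -0.18 after centring, with 5 above and 14 below, and -0.02 with the mean over probe sets. Fars2 and Hars2 were at 0.46, Aars2 at 0.40 and Yars2 at -0.40. A second probe set read -0.20 for Fars2 and -0.39 for Hars2. That of Yars2 read 310.6 in Phc2 L307R and 768.8 in wild type, a log2 ratio of -1.31. Genes for mitochondrial DNA upkeep and transcription had a median of 0.01 over 12 genes, 6 on each side of 0, and of -0.06 after centring. Prorp, the nuclease of mitochondrial RNase P, was at 0.55, Trmt10c of the same enzyme at -0.29, the RNA polymerase Polrmt at 0.27 and Tfam, which packages mitochondrial DNA, at -0.22. Second probe sets of Polrmt and Tfam had the opposite sign, at -0.34 and 0.22.

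Nuclear regulators of mitochondrial genes had a median of -0.20 over 8 measured genes, 7 of them below 0, and the median ran from -0.26 to -0.12 over the alternatives. Over all measured genes 4664 of 11408 were below 0. Myc was at -0.29, the coactivator Ppargc1b at -0.28, and the GABP subunits Gabpa and Gabpb1 at -0.26 and -0.25, with a second probe set of Gabpb1 at 0.16. Nrf1 was the one above 0, at 0.11, with 504.3 in Phc2 L307R and 468.1 in wild type, while its 3 further probe sets lay between -0.20 and -0.01. Ppargc1a lay below the floor on both arrays. At the probe sets that represent them, each of these differences is smaller than the 0.32 SD between probe sets of 1 gene, and a second probe set of Gabpa, at -0.35, is not.

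Other proteins of the organelle had a median of -0.04 over 20 genes, 8 above 0 and 12 below. Tomm70a, an import receptor of the outer membrane, stood lowest at -0.88, with 2386.8 in Phc2 L307R and 4399.0 in wild type, and its 3 further probe sets ran from -0.62 to -0.17. Timm44 of the import motor was at 0.38 and the channel Vdac1 at 0.32, with further probe sets down to -0.04 and -0.31. The import receptor Tomm20 was at -0.29. Its further probe sets ran up to 0.17 and down to -1.27, the last with 2858.7 in Phc2 L307R and 6883.7 in wild type. On the same arrays 8 of 9 markers of dividing cells were below 0, with a median of -0.20 and signals summing to 33480 in Phc2 L307R and 38120 in wild type. Ccnb1, also listed, had no probe set with 1 symbol here. Fibroblast markers had a median of 0.42, or 0.21 after quantile normalization. The 7 chondrocyte markers had a median of 0.80, 6 of them above 0 and Sox9 at -0.29. Their signals summed to 8753 in Phc2 L307R and 5803 in wild type, of which Col2a1 gave 5685.2 in Phc2 L307R and 4037.2 in wild type. The 3 osteoblast markers with a probe set of 1 symbol had a median of 0.72, with Ibsp at 997.6 in Phc2 L307R and 228.8 in wild type. Alpl was at 179.1 in Phc2 L307R and 108.6 in wild type, the latter near the floor. Sp7 was at 134.0 in Phc2 L307R and 91.0 in wild type, the latter under the floor. Runx2 and Bglap, also listed, had no such probe set here. The 4 measured macrophage markers had a median of 0.56. Signals of all 6 macrophage markers, with Ptprc and C1qa below the floor, summed to 741.5 in Phc2 L307R and 533.1 in wild type. The part of these cell types in the values of the mitochondrial genes was not tested. In bulk RNA, fewer cells of a type and less RNA per cell cannot be told apart.

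**Figure D4:**
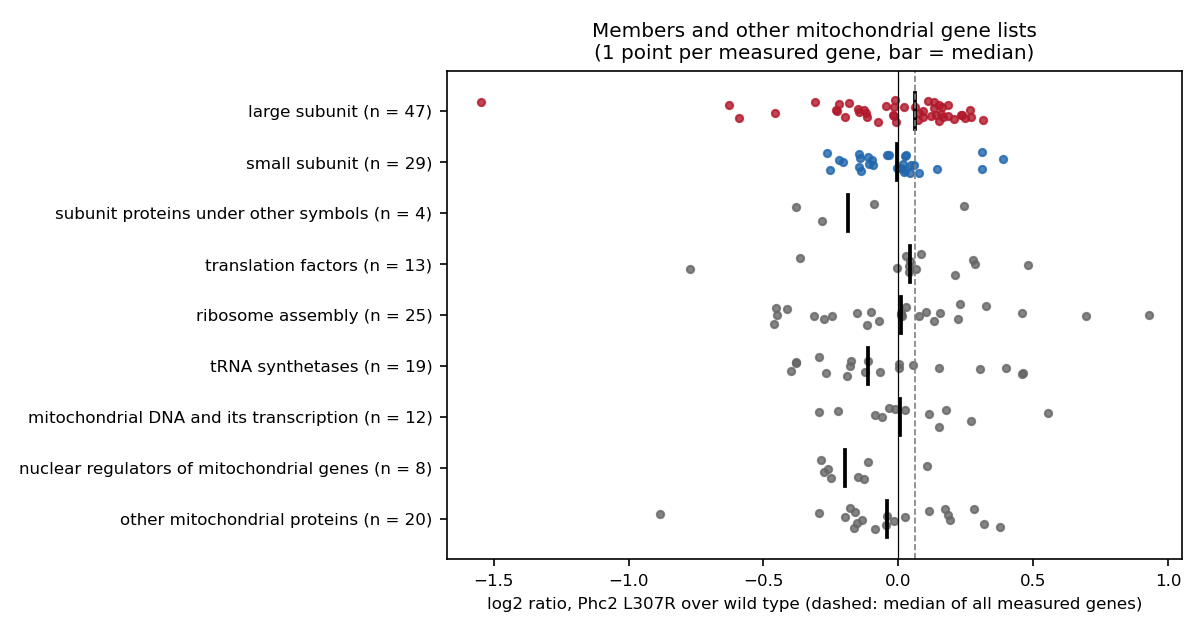
Log2 ratios, Phc2 L307R over wild type (horizontal axis), of the measured genes of the large and small subunit and of 7 other mitochondrial lists, with 1 point per gene and a bar at each median. The medians lie between -0.20 and 0.06, the dashed line marks the median of all measured genes at 0.06, and the point farthest left is Mrpl33 at -1.55.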

How the data were processed

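Total RNA of each culture was hybridised as biotin-labelled cRNA to 1 Affymetrix array. The authors deposited 1 table of intensity on a linear scale, with 45101 probe sets. Affymetrix Expression Console and MAS5 are named, without versions, per the submitters' processing notes. The sources used here do not state the scaling step; the values show equal trimmed means of 500.0 on both arrays (2% trimmed at each end).

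The 64 control probe sets were left out. Symbols were updated through the RefSeq gene table of GRCm38.p6, where all 76 genes matched. Each gene took the probe set whose log2 signal was highest on average, and signals below the floor of 94.8 were raised to it. With 1 array per genotype no p-value was computed, and genes were counted at 2-fold, with 1.5-fold and 1.2-fold as descriptions. The number of arrays limits the precision. Calculations (Python 3.11.15, pandas 2.3.3, statsmodels 0.14.6) were tested on simulated arrays.

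The members, the 7 mitochondrial lists and the marker lists were chosen with earlier results of these data known, and the classes by descent were written from general knowledge. Genes were named by rule: Mrpl33 with every probe set, the 12 highest and 12 lowest members, members with discordant probe sets, members on the chromosome of Phc2, the 5 genes on each side of Mrpl33, the Mrps18 paralogs, and up to 4 genes of each list. Members named for a functional part of the subunit, Mrps17, Nrf1, Fastkd2, Gtpbp10, the single cell type markers and the promoters shown were chosen after their values were seen.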

Additional observations from a re-analysis of the deposited data

How the results depend on the processing

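The log2 ratio of Mrpl33 stayed between -1.61 and -1.44 under 9 alternatives: quantile normalization, loess, centring, a floor at the 40th percentile, one at the 60th, none at all, the floor as a pseudocount, the mean over probe sets, and the removal of _x_at and _s_at probe sets. It was the lowest member and the only one past 2-fold in each. Of these, the 3 floor settings, the mean over probe sets and the removal of suffixes could not move Mrpl33, which has 1 measured probe set without such a suffix, well above every floor. Moving the floor changed no representing value, since all members lay above it. The median of all members ran from -0.05 to 0.01, that of the large subunit from -0.01 to 0.06 and that of the small subunit from -0.07 to 0.01, so the sign of these medians is not settled. At a threshold of 1.5-fold 3 members were lower, and at 3-fold 0 members were, in either case by construction; none was higher at either. Of the other 75 members, 13 changed sign under at least 1 of the 3 scalings. In 6 cases a member moved by more than the SD between probe sets, 0.33: Mrpl1 to -0.13, Mrpl13 to -0.43, Mrpl49 to 0.04 and Mrps24 to -0.09 with the mean over probe sets, and Mrpl15 to -0.17 and Mrpl19 to -0.44 without _x_at and _s_at probe sets. No paired analysis was possible because each genotype had 1 array. Without replicates, no difference here is set against the spread between cultures.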
